A study of Mus musculus with 3 samples.

Results

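Among 25263 liver cells profiled by Drop-seq, 88 were T cells that carried the chemokine receptor gene Cxcr6 and no transcript of Cd8. They were selected on their own counts. A member had at least 200 detected genes, 1 or more transcripts of at least 2 of the 6 T cell receptor and CD3 genes Cd3d, Cd3e, Cd3g, Trac, Trbc1 and Trbc2, 1 or more transcripts of Cxcr6, and none of Cd8a or Cd8b1. A transcript here is a unique molecular identifier (UMI), a tag that lets copies of 1 captured mRNA be counted once, and the level of a gene is its UMIs scaled to a total of 1e+06 UMIs of the same cells (CPM). Adult C57BL/6 mice were used in all 3 groups. Control livers underwent sham surgery and were taken after 1 day. Injured livers underwent irreversible electroporation (IRE), given in the labels as 50 ms pulses at 75 V across a liver lobe while the study's methods state a lower voltage, and were taken after 1 or 7 days. A 4 mm punch of the injured area, or of the matching uninjured area, was dissociated, and punches from 3 livers were pooled into 1 library per group. Differences between days therefore had no replicate, the intervals given for them covered counting error only (95%, exact), and the animal, the library and the treatment cannot be told apart.

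Cxcr6 is the receptor for Cxcl16, a chemokine that sinusoidal endothelial cells and macrophages of the liver display on their surface. In mouse liver it is known from T cells that patrol the sinusoids, among them natural killer T (NKT) cells, γδ T cells and tissue-resident memory T cells. NKT cells use an invariant receptor made with a small set of β chain V genes, and Trbv13-2, the gene of the Vβ8.2 chain, is the one most used.

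The members comprised 58 control cells, 25 cells of IRE day 1 and 5 cells of IRE day 7. They held 55077, 20222 and 3087 UMIs, so that 1 UMI stood for 18.2, 49.5 and 324 CPM. The day 7 values below thus rest on 5 cells, and a gene at 0 there could still have been present at up to 972 CPM, the level of 3 UMIs. For comparison served the 590 T cells with neither Cd8 nor Cxcr6 (321, 213 and 56 cells), termed Cxcr6-negative T cells, and the 136 Cd8 T cells (62, 24 and 50 cells), of which 14 carried Cxcr6. Negative and without mean here that no UMI was captured. Some members may thus be Cd8 T cells, and some Cxcr6-negative T cells may express Cxcr6, which was not tested.

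How firmly the rule marked these cells varied. A single Cxcr6 UMI admitted 71 members, and 17 had 2 or more. Exactly 2 of the 6 T cell genes were found in 56 members and 3 or more in 32. Just outside the rule lay 99 barcodes with Cxcr6 and only 1 of the T cell genes, and 7 barcodes that passed the rest with at least 180 but fewer than 200 genes. Within it, 1 member had fewer than 220 genes. These values were used to choose the cells and are given as a description.

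Of the genes that mark the cells, Cd3g, a subunit of the CD3 signaling complex, was present in 45 of 88 members with 36, 17 and 2 UMIs in control, day 1 and day 7. Trac, the α chain constant gene, was seen in 12 members with 7, 4 and 3 UMIs, and the more abundant Trbc2, a β chain constant gene, in 63 with 66, 41 and 11 UMIs. Trac was less frequent in the members (13.6%) than in Cxcr6-negative T cells (24.7%) and Cd8 T cells (33.8%). Cd3g was more frequent, with 51.1% beside 40% and 44.1%. All of these genes belong to the rule. Trbv13-2 does not, and was seen in 8 members, 4 in control, 3 at day 1 and 1 at day 7.

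T cell genes outside the rule were also frequent. At least 1 of 14 such genes was found in 73 of 88 members (83.0%, median depth 795 UMIs per cell), in 372 of 590 Cxcr6-negative T cells (63.1%, 601 UMIs), in 76 of 479 barcodes with B cell genes and no T cell receptor gene (15.9%, 541 UMIs), and in 9.12% of 3377 endothelial barcodes (582 UMIs). The share in B cells and endothelial cells, which should lack these genes, served as the background of free RNA. Here and below, both of these sets were chosen without a UMI of the 6 T cell genes. Barcodes that had taken up such T cell RNA were thereby left out, so the background may be too low. Thy1, a surface glycoprotein of T cells, had 34, 8 and 3 UMIs in the members, Skap1, a Src kinase-associated adaptor of T cell adhesion, had 23, 5 and 2, and the kinase gene Lck had 16, 6 and 2. Summed, the 14 genes reached 2633, 2225 and 4211 CPM in the members. The ratio to Cxcr6-negative T cells was 1.31 (1.08 to 1.57) in control, 1.93 (1.37 to 2.68) at day 1 and 1.89 (0.953 to 3.49) at day 7. A single barcode gave 15718 of the 177932 UMIs of Cxcr6-negative T cells at day 1. The day 1 ratios to this set, here and below, were not computed without it.

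Transcripts of other cells were present as well. At least 3 marker genes of another class were found in 38 of the 88 members, 23 in control, 13 at day 1 and 2 at day 7. Macrophage and monocyte markers accounted for 31 of them, endothelial markers for 8, neutrophil markers for 6 and B cell markers for 1, with overlap. The corresponding numbers were 260 of 590 Cxcr6-negative T cells and 64 of 136 Cd8 T cells. Hepatocyte genes made up 0.0563% of member UMIs in control, 1.32% at day 1 and none at day 7. Mitochondrial transcripts took 18.8%, 18.8% and 3.08%, beside 20.5%, 21.7% and 4.10% in the whole libraries. Of 483 barcodes that occurred in more than 1 library, 2 were members, both at day 1. Doublets were not called separately, and counts below are also given without barcodes that carried genes of another class. The part of this foreign RNA in single results was otherwise not tested.

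The members were 0.558% (0.424 to 0.721) of control cells, 0.270% (0.175 to 0.399) of day 1 cells and 0.0889% (0.0289 to 0.207) of day 7 cells. All T cells together followed the same order, with 4.25%, 2.83% and 1.97% of cells. Within T cells without Cd8, the part that carried Cxcr6 was 15.3% (58 of 379), 10.5% (25 of 238) and 8.20% (5 of 61), and the intervals of the 3 libraries overlapped. Depth followed the same order, with a median of 707, 564 and 416 UMIs per T cell without Cd8. At a matched depth of 300 UMIs, reached by random thinning and without 1, 7 and 11 shallower cells, the shares were 6.08% (3.90 to 8.99), 7.36% (4.35 to 11.5) and 6.00% (1.25 to 16.5). Summed over all T cells without Cd8, the Cxcr6 level was 211 CPM (165 to 266) in control, 167 (115 to 234) at day 1 and 202 (74.3 to 441) at day 7. The order seen in the shares at own depth was therefore absent from the depth-matched shares and from the level.

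As a background for a single Cxcr6 UMI, B cell barcodes carried one in 0.873% of control cells and 0.870% of day 1 cells, at median depths of 588 and 526.5 UMIs, and endothelial barcodes in 0.285% and 1.01%. No Cxcr6 was found in 20 B cell barcodes at day 7, which allows a share of up to 15.0%. The T cell shares of control and day 1 lay above these backgrounds, and at day 7 the intervals overlapped. Among barcodes with natural killer cell genes and no T cell receptor gene, Cxcr6 was found in 2 of 140, 1 of 21 and 0 of 13.

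**Figure D1:**
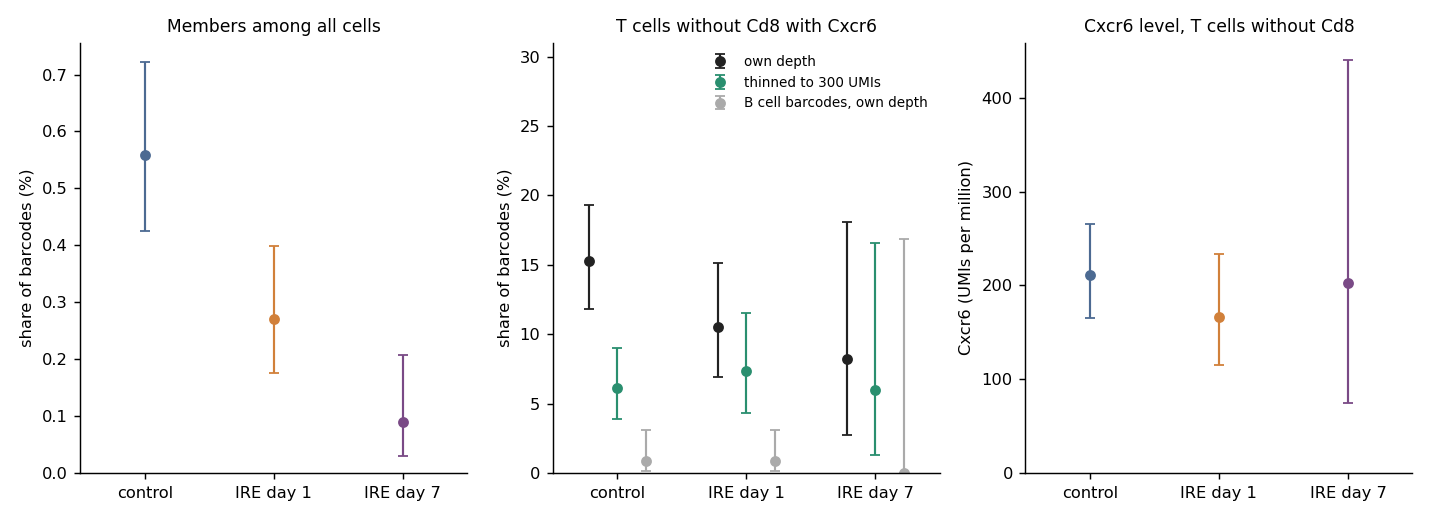
Left, share of all cells that were Cxcr6 T cells without Cd8 (%), by library. Middle, share of T cells without Cd8 that carried Cxcr6 at their own depth (black) and at a matched depth of 300 UMIs (green), beside B cell barcodes (grey). Right, Cxcr6 level over all T cells without Cd8 in CPM. Points are the values of 1 library each and bars are exact 95% counting intervals. The left panel goes from 0.558% to 0.0889%, while the thinned shares lie between 6.00% and 7.36% and the level between 167 and 211 CPM.

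Which T cells these were was read from receptor genes. Of 20 Trbv symbols in the files, 9 had a UMI in the members, 20 UMIs in all. Trbv13-2 led with 8 of the 20 (40%, 19.1 to 63.9), followed by Trbv31 with 3 and by Trbv19 and Trbv29 with 2 each from a single cell. In Cxcr6-negative T cells Trbv13-2 took 38 of 133 Trbv UMIs (28.6%, 21.1 to 37.0), and in Cd8 T cells 2 of 58 (3.45%, 0.420 to 11.9). It was seen in 9.09% of members, 5.76% of Cxcr6-negative T cells, 1.47% of Cd8 T cells and 0 of 479 B cell barcodes. Among Trbv UMIs, the interval of the members thus overlapped that of Cxcr6-negative T cells and lay above that of Cd8 T cells. These intervals treat UMIs of different cells as independent and were not a test over samples.

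Zbtb16, the transcription factor that directs NKT cell development, had 2, 0 and 2 UMIs in 2 members, a share of 2.27% (0.276 to 7.97) that could not be told from the 1.04% of B cell barcodes. Klrb1c, which encodes NK1.1, had 3, 6 and 0 UMIs in 9 members (10.2%), with 6.27% in Cxcr6-negative T cells, 3.68% in Cd8 T cells and 2.30% in B cell barcodes. Any of Zbtb16, Klrb1c and the V genes Trbv1, Trbv13-1, Trbv13-2, Trbv13-3 and Trbv29 was found in 19 members (21.6%), in 20.2% of Cxcr6-negative T cells and in 17.6% of Cd8 T cells. Over all libraries together the members did not stand out by this set. By library it was found in 7 of 58 control members (12.1%, 4.99 to 23.3), 10 of 25 at day 1 (40%, 21.1 to 61.3) and 2 of 5 at day 7, and in 21.5%, 19.7% and 14.3% of Cxcr6-negative T cells. The summed level of the 11 NKT-associated genes measured was 309 CPM (17 UMIs) in control members and 791 CPM (16 UMIs) at day 1, a ratio of 2.56 (1.21 to 5.40). In Cd8 T cells the share with the smaller set was 16.1%, 12.5% and 22%. The summed level of the 11 genes was 427, 438 and 979 CPM in Cxcr6-negative T cells and 228, 313 and 1107 CPM in Cd8 T cells. The shares of control and day 1 members had overlapping intervals, came from 1 library each, and were not set against a background of free RNA for this set.

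A γ chain gene of the γδ T cell receptor was found in 12 members (13.6%, 7.25 to 22.6), in 10.8% of Cxcr6-negative T cells, in 3.68% of Cd8 T cells and in 0.626% of B cell barcodes. Trgv2 led with 8 UMIs in control, 1 at day 1 and 0 at day 7, from 6 members. Of the 12 members, 8 also carried Trbc1 or Trbc2, which belong to the rule and were found in 73 of all 88 members (83.0%). One of the NKT-associated genes was found in 2 of the 12, beside 19 of all 88. Cd4, the coreceptor of helper T cells, had 6 UMIs in 5 control members and 0 in the other libraries, a share of 5.68% (1.87 to 12.8) beside 2.20% of Cxcr6-negative T cells, 0.626% of B cell barcodes and none of 136 Cd8 T cells, which allows up to 2.21%. In 55 of the 88 members (62.5%) no Cd4, γ chain or NKT-associated gene was detected, beside 70.2% of Cxcr6-negative and 78.7% of Cd8 T cells. Most members could thus not be assigned to a type by these genes at this depth. Trac and the Trbv genes outside the NKT-associated set did not enter this count.

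**Figure D2:**
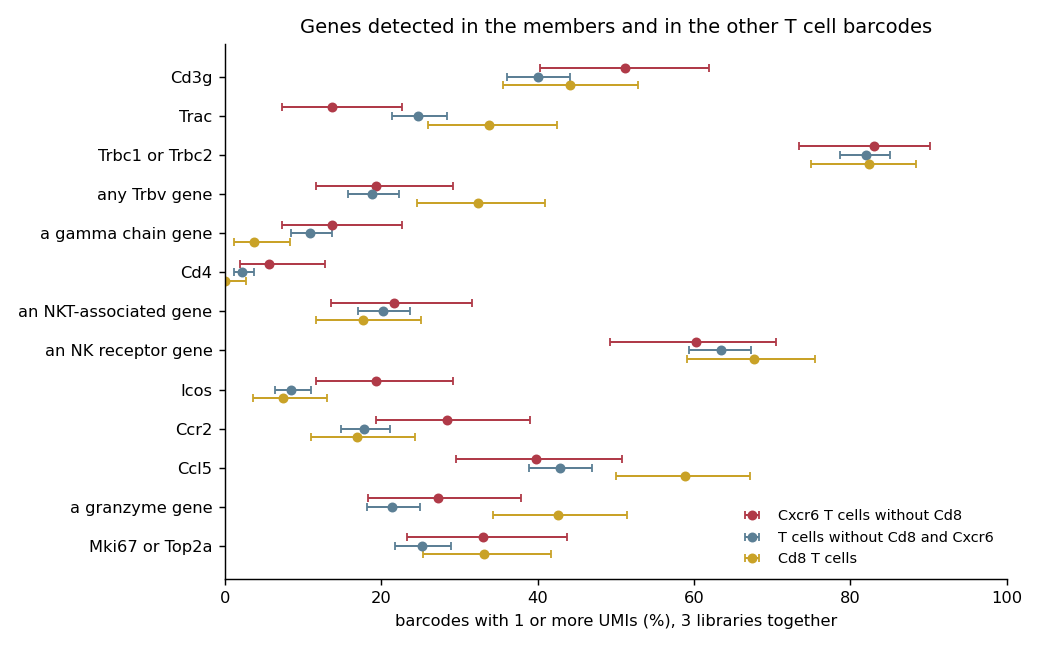
Share of barcodes with 1 or more UMIs of a gene or gene set (%, horizontal axis), 3 libraries together, in Cxcr6 T cells without Cd8 (red, 88 cells), Cxcr6-negative T cells (blue, 590) and Cd8 T cells (yellow, 136), with exact 95% intervals. Median depth was 795, 601 and 593 UMIs. Icos reached 19.3% of the members against 8.47% and 7.35%, while Ccl5 was found in 39.8% of them against 58.8% of Cd8 T cells. The sets hold the 3 libraries in unlike parts. In control alone Ccl5 was found in 48.3% of members and 51.6% of Cd8 T cells.

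Genes of activation and homing were described next. Icos, a costimulatory receptor, had 16, 4 and 0 UMIs in 17 members. This was 19.3% of the members, 8.47% of Cxcr6-negative T cells, 7.35% of Cd8 T cells and 1.25% of B cell barcodes. Its level in control was 290.5 CPM in the members, 171 in Cxcr6-negative T cells and 91.0 in Cd8 T cells. Against Cxcr6-negative T cells the log2 difference in edgeR's quasi-likelihood test was 0.80 ± 0.58 (SE), with an adjusted p of 1.00. Ccr2, the receptor for Ccl2 on monocytes and some memory T cells, had 33, 5 and 0 UMIs in 25 members (28.4%), with 17.8% in Cxcr6-negative T cells and 6.26% in B cell barcodes. Of these 25 members 16 also carried genes of another class. Il7r, the interleukin 7 receptor of long-lived T cells, had 15, 3 and 1 UMIs in 10 members (11.4%), close to the 11.9% in Cxcr6-negative T cells. Both Icos and Ccr2 were thus found in a larger share of the members, which were also the deeper cells, and neither difference passed the test.

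The transcription factor genes Id2, Rora and Maf were of interest as regulators of innate-like T cells. Id2, which innate-like and effector lymphocytes use, had 57, 22 and 2 UMIs in 42 members (47.7%), with 35.9% in Cxcr6-negative T cells, 32.4% in Cd8 T cells and 11.1% in B cell barcodes. In control the level of Id2 was 1035 CPM in the members, 707 in Cxcr6-negative T cells and 455 in Cd8 T cells, and at day 1 it was 1088, 641 and 278 CPM. At day 7 the order was not kept, with 648, 1168 and 1214 CPM. The log2 difference of Id2 was 0.78 ± 0.43 against Cd8 T cells (edgeR adjusted p = 0.923) and 0.18 ± 0.40 against Cxcr6-negative T cells (adjusted p = 1.00). Rora had 10 UMIs in control and none later. Maf had 17, 17 and 1 UMIs in 21 members (23.9%), with 25.3% in Cxcr6-negative T cells, 11.8% in Cd8 T cells, 25.3% in B cell barcodes and 65.1% in endothelial barcodes. In control its level was 309 CPM in the members and 75.8 CPM in Cd8 T cells, a ratio of 4.07 (1.44 to 14.1). The log2 difference of Maf was 1.09 ± 0.61 against Cd8 T cells (edgeR adjusted p = 0.923) and -0.17 ± 0.44 against Cxcr6-negative T cells (adjusted p = 1.00). The 9 type 17 genes had 29 UMIs in control members, 17 of them from Maf, and 6 in control Cd8 T cells. Their ratio to Cd8 T cells was 5.79 (2.36 to 17) in control and 1.97 (0.912 to 4.37) at day 1. Against Cxcr6-negative T cells the ratio of this list was 0.745 in control and 1.34 at day 1, and both of these intervals included 1. The higher level of the list in control members was thus seen against Cd8 T cells only. How much of the Maf count was free RNA was not tested.

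Foxp3, the transcription factor of regulatory T cells, and the cytokine gene Il17a were at 0 in the members, as were Gzmk, Prf1, Pdcd1, Lag3 and the natural killer cell genes Ncr1 and Eomes. A count of 0 in the control members allows a level of up to 54.5 CPM, 3 UMIs.

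Across all genes, the members were compared with Cxcr6-negative T cells in edgeR's quasi-likelihood test on UMIs summed per library, with the library as a block and Benjamini-Hochberg adjustment. Genes with at least 30 UMIs over the 6 sums were tested, and the 9 genes of the rule were left out. No gene of 2923 was higher in the members (0%) and 3 were lower (0.103%). At an unadjusted p under 0.05 there were 108 genes, 4 of them higher, and DESeq2 called none, with 6 at that unadjusted level. Without the day 7 library 32 of 136 such genes were higher. The scaling factor of the day 7 sum was 1.95 for the members and 0.981 for Cxcr6-negative T cells, and its part in the imbalance was not tested. The 3 genes were Spp1, the gene of osteopontin, with a log2 difference of -3.58 ± 0.72 (adjusted p = 0.00178, alternatives 0.000336 to 1.00), Fgb, which encodes fibrinogen β in hepatocytes, with -3.76 ± 0.87 (adjusted p = 0.0145), and Cp, the gene of ceruloplasmin, which was at 0 in all members (adjusted p = 0.0135). The Spp1 counts were 0, 2 and 2 UMIs in the members against 22, 347 and 13.

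These calls went with a few barcodes of another kind. One Cxcr6-negative barcode at day 1 held 293 of the 347 Spp1 UMIs and another single barcode 57 of the 128 Cp UMIs, and 5 barcodes held 4903 of the 7233 hepatocyte UMIs of that sum. Without the day 1 library no gene was called, and without the day 7 library 7 were. Without barcodes that had over 5% hepatocyte transcripts, an alternative chosen after seeing the data, Spp1 alone was called. Without barcodes carrying genes of another class, Gzma alone was called.

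None of the gene lists of T cell biology held a called gene in this comparison. The other T cell genes had 10 of 14 members tested, 9 of them above zero, and a median log2 difference of 0.52, beside -0.21 over all 2923 genes. For 9 tested NK receptor genes the median was -0.01, for 6 cytotoxic genes -0.11, for 4 type 1 genes -0.33, for 5 tissue residency genes -0.65 and for 8 genes of naive and recirculating T cells -0.39. Cell division genes, all 19 tested, had a median of -0.25 with 8 above zero. By these medians the other T cell genes stood farthest above the value of all genes among the lists with at least 5 genes tested.

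Within single libraries, the summed level of the NK receptor genes was 0.887 of that in Cxcr6-negative T cells (0.720 to 1.09) in control and 1.43 times it (1.07 to 1.90) at day 1, and that of the type 1 genes was 1.14 times as high (0.926 to 1.39) in control, 1.81 times (1.36 to 2.39) at day 1 and 0.0796 of it (0.00958 to 0.291) at day 7. NK receptor genes include Fcer1g and Tyrobp, adaptors that myeloid cells also use, with 26 and 23 of the 112 control UMIs, and at least 1 gene of the list was found in 45.5% of B cell barcodes, beside 60.2% of the members. The type 1 value at day 1 moved with Ccl5, which gave 56 of the 62 UMIs, 39 of them in 2 cells. Neutrophil markers were at 1.75 times the level of Cxcr6-negative T cells (1.51 to 2.02) in the members in control, and 184 of the 215 S100a8 and S100a9 UMIs there came from 4 members. Mesenchymal markers stood at 0.190 (0.0974 to 0.337) in control.

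**Figure D3:**
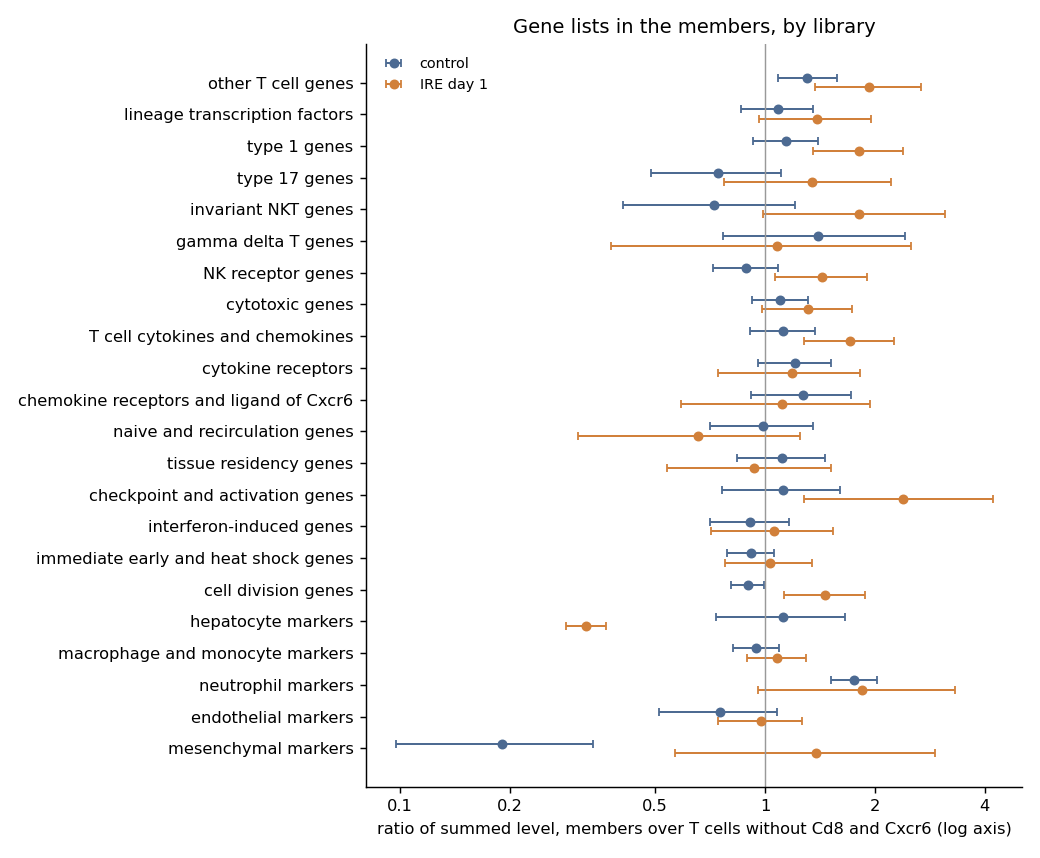
Ratio of the summed level of each gene list in Cxcr6 T cells without Cd8 to that in Cxcr6-negative T cells (horizontal log axis), in control (blue) and IRE day 1 (orange), with exact 95% counting intervals. The other T cell genes lie above 1 in both libraries at 1.31 and 1.93, and the cell division genes lie at 0.896 in control and 1.46 at day 1.

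Against Cd8 T cells the same test found no gene of 965 higher in the members (0%) and 22 lower (2.28%). At an unadjusted p under 0.05 there were 60, 5 of them higher, and DESeq2 called none, with 10 at that level. Without the day 7 library 11 of 52 such genes were higher. The scaling factor of the day 7 sum was 1.62 for the members and 1.03 for Cd8 T cells. Gzma and Ccl5, a pair of effector genes of cytotoxic lymphocytes, were among the 22. Gzma, which encodes granzyme A, had 20, 2 and 1 UMIs in 9 members, or 363, 98.9 and 324 CPM. Cd8 T cells had 177, 5 and 31 UMIs, or 2685, 174 and 1107 CPM. The members were lower in all 3 libraries, and the intervals were apart in control, where the ratio was 0.135 (0.0807 to 0.215). The log2 difference of Gzma was -2.55 ± 0.54 (edgeR adjusted p = 0.000413, alternatives 0.000101 to 1.00). Without the control library it was -1.40 with an adjusted p of 0.849, so the call rested on that library. In B cell barcodes the share with Gzma was 3.55%, against 10.2% of the members and 28.7% of Cd8 T cells.

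Ccl5, a chemokine of memory and effector T cells, had 79, 56 and 1 UMIs in 35 members, or 1434, 2769 and 324 CPM. In Cd8 T cells it reached 2290, 2643 and 9356 CPM. The ratio was 0.626 (0.471 to 0.828) in control, 1.05 (0.728 to 1.50) at day 1 and 0.0346 (8.7e-04 to 0.195) at day 7. The log2 difference was -1.21 ± 0.37 (edgeR adjusted p = 0.0472, alternatives 0.000294 to 1.00), and without the day 7 library it was -0.47 with an adjusted p of 0.801. With the libraries together, Ccl5 was in 39.8% of members, 58.8% of Cd8 T cells and 10.6% of B cell barcodes. By library it was in 28 of 58, 6 of 25 and 1 of 5 members. Among Cd8 T cells it was in 32 of 62, 12 of 24 and 36 of 50. The control shares, 48.3% and 51.6%, thus lay close together, and day 7 cells made up a larger part of the Cd8 T cells.

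Other effector genes did not pass. Gzmb, which encodes granzyme B, had 26, 6 and 2 UMIs in 18 members, and the log2 difference was -0.77 ± 0.47 against Cd8 T cells (edgeR adjusted p = 0.997) and 0.15 ± 0.44 against Cxcr6-negative T cells (adjusted p = 1.00). Nkg7, a granule membrane protein, had 30, 14 and 0 UMIs, or 545, 692 and 0 CPM against 743, 835 and 2178 CPM in Cd8 T cells (edgeR adjusted p = 0.404). In the members of control the level of Gzmb, 472 CPM, was thus above that of Gzma, 363 CPM, while in Cd8 T cells Gzma was at 2685 and Gzmb at 576 CPM. The reads came from the 3' end, so that these levels need no correction for length, but 3' ends are not captured equally. Gzma was also below Cxcr6-negative T cells in every library, with ratios of 0.629, 0.352 and 0.287, and that log2 difference was -1.17 ± 0.48 (edgeR adjusted p = 0.820). Without barcodes carrying genes of another class it was -3.36 and passed, with an adjusted p of 0.0187, on 2, 1 and 0 UMIs in the members. In control, 15 of the 20 Gzma UMIs came from 2 members. For the 12 cytotoxic genes together the ratio to Cd8 T cells was 0.535 (0.440 to 0.648) in control, 1.33 (0.918 to 1.93) at day 1 and 0.460 (0.254 to 0.771) at day 7, and of the 6 genes tested Gzma alone was called, with a median of -0.33 beside -0.13 over all 965 genes. The list includes the serglycin gene Srgn, with 45 of 156, 23 of 59 and 11 of 15 UMIs in the members. In Cd8 T cells it gave 38 of 349, 13 of 63 and 104 of 296 UMIs. In the day 7 members 10 of the 11 came from 1 cell. The NK receptor genes stood at 0.789 (0.616 to 1.01), 3.59 (2.18 to 6.09) and 0.0881 (0.00221 to 0.502), and none of the 6 tested was called. A single barcode gave 8978 of the 28752 UMIs of the Cd8 T cells at day 1, and the day 1 ratios to Cd8 T cells were not computed without it.

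**Figure D4:**
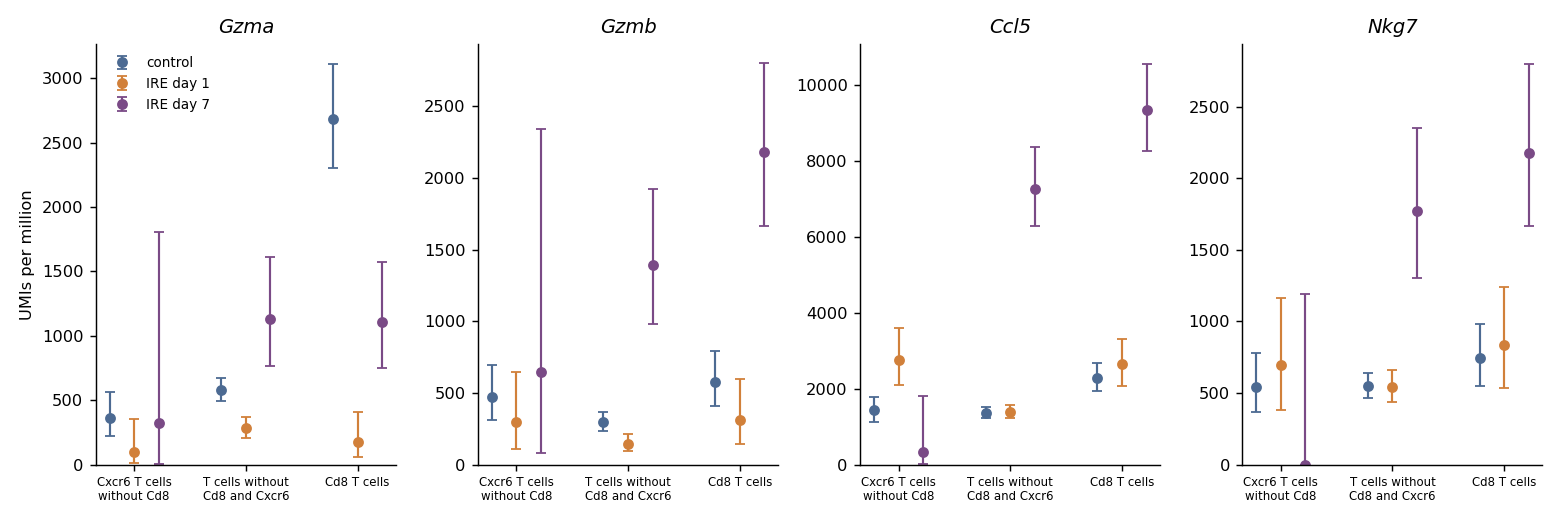
Levels of Gzma, Gzmb, Ccl5 and Nkg7 in CPM (vertical axes, each from 0) in the 3 T cell sets of control (blue), IRE day 1 (orange) and IRE day 7 (purple), with exact 95% counting intervals. Gzma stands at 363 CPM in the control members and at 2685 CPM in control Cd8 T cells, and the day 7 members carry 1 UMI each of Gzma and Ccl5.

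Of the other 20 genes lower than in Cd8 T cells, 12 were hepatocyte markers, from Fgb at -4.57 ± 0.88 to Fabp1 at -2.38 ± 0.61. One Cd8 T cell barcode of day 1 held 2172 of the 2460 hepatocyte UMIs of that sum. The remaining 8 included the secreted liver proteins Hpx, Apoc1 and H2-Q10, 1100001G20Rik, and the macrophage genes Mmp12, Ctsl and Lgals3. A pair of control Cd8 barcodes held 60 of the 67 Mmp12 UMIs, and 1 barcode held 98 of the 117 Ctsl UMIs. Without the day 1 library 5 genes were called and without the day 7 library 13. Without barcodes over 5% hepatocyte transcripts 5 genes were called, Ccl5, Ctsl, Gzma, Lgals3 and Mmp12. Without barcodes carrying genes of another class 2 were called, Ccl5 and Gzma.

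At IRE day 1 the members had lower levels of cell division genes and of Lgals1, S100a4 and S100a6 than in control. Genes were called when the CPM ratio of the libraries passed 2-fold with at least 20 UMIs over both sums and, for a gene at 0, when the floor of 3 UMIs lay past it. Of 496 such genes 31 were higher (6.25%) and 82 lower (16.5%), and no test was possible with 1 library per group. The median log2 ratio over all 496 was -0.16.

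Lgals1, which encodes the β-galactoside-binding lectin galectin-1, went from 104 UMIs in 36 control members to 3 UMIs in 3 members at day 1, from 1888 to 148 CPM, a ratio of 0.0786 (0.0159 to 0.236). S100a4, a calcium-binding protein of motile and memory T cells, went from 72 to 3 UMIs, a ratio of 0.113 (0.0229 to 0.345). For S100a6, of the same family, the counts were 71 and 6, a ratio of 0.230 (0.0817 to 0.526). All of these were lower in the Cxcr6-negative T cells too, at 0.249, 0.282 and 0.199, and over all barcodes of the libraries, at 0.296, 0.157 and 0.125. In Cd8 T cells Lgals1 stood at 0.434 and S100a6 at 0.302, while S100a4 was at 1.15 (0.479 to 2.57). Without members carrying genes of another class the counts were 63 and 2 UMIs for Lgals1, 39 and 2 for S100a4 and 42 and 2 for S100a6. Lower levels at day 1 were therefore also measured outside the members.

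Mki67, the marker of cycling cells, had 52 UMIs in 20 control members and 3 UMIs in 1 member at day 1, and none at day 7. Hmgb2, a chromatin protein abundant in dividing cells, went from 173 to 26 UMIs, a ratio of 0.409 (0.260 to 0.621), and Top2a, which encodes topoisomerase IIα, from 50 to 8, a ratio of 0.436 (0.178 to 0.926). Prc1, a gene of cytokinesis, had 21 and 0 UMIs. Of the 19 genes of the cell division list 7 had enough UMIs, 5 were past 2-fold lower and none higher, with a median log2 ratio of -1.29. Their sum was 7971 CPM (439 UMIs, 45 of 58 members) in control, 3560 CPM (72 UMIs, 16 of 25 members) at day 1 and 3239 CPM (10 UMIs) at day 7. The ratio at day 1 was 0.447 (0.343 to 0.574), beside 0.274 in Cxcr6-negative T cells, 0.438 in Cd8 T cells and 0.490 over all barcodes. In members without genes of another class it was 0.194 (0.0990 to 0.344). Cycling transcripts were a feature of control T cells of every set, and 29 of the 88 members (33.0%) carried Mki67 or Top2a, against 25.3% of Cxcr6-negative and 33.1% of Cd8 T cells and 11.3% of B cell barcodes.

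**Figure D5:**
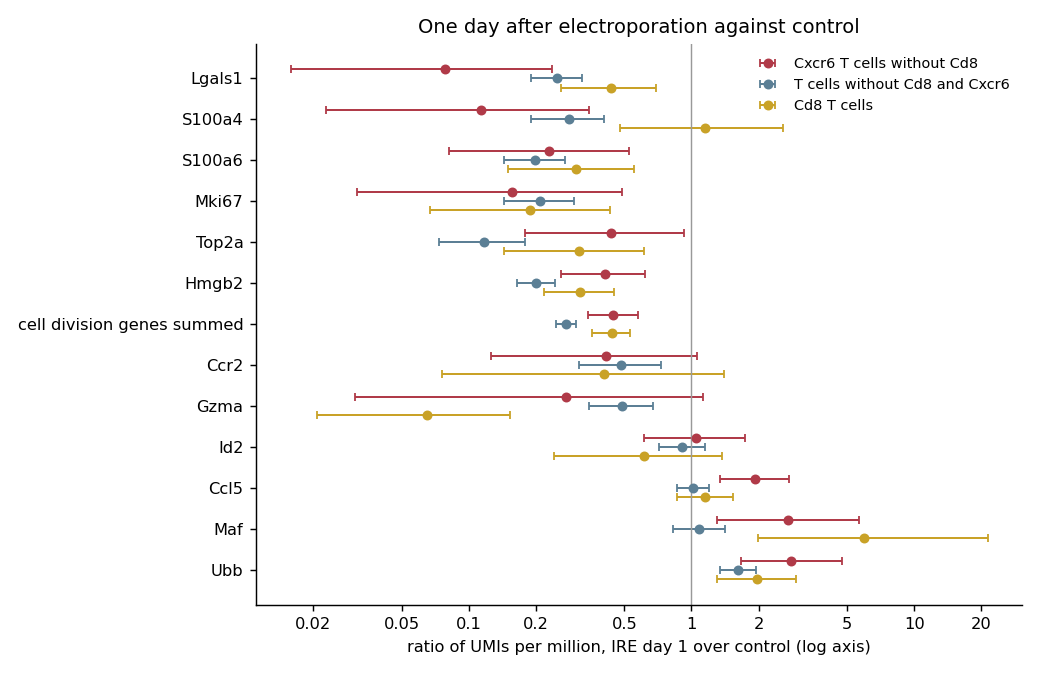
Ratio of CPM at IRE day 1 to control (horizontal log axis) in Cxcr6 T cells without Cd8 (red), Cxcr6-negative T cells (blue) and Cd8 T cells (yellow), with exact 95% counting intervals. Lgals1, S100a6 and Mki67 lie below 1 in all 3 sets, at 0.0786, 0.230 and 0.157 in the members, and Ccl5 lies at 1.93 in the members against 1.01 and 1.15.

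Among the genes higher at day 1 the leading ones were mostly transcripts of other cells. The hepatocyte genes Alb, Ttr and Apoa2 went from 4 to 78, 2 to 34 and 6 to 28 UMIs, the apolipoprotein gene Apoc1 from 1 to 29, the endothelial gene Ptprb from 5 to 17 and the Kupffer cell gene Clec4f from 12 to 16. Each of the 25 members of day 1 carried a hepatocyte UMI, as did each T cell of the comparison sets. Sepp1, a selenoprotein of plasma and macrophages, went from 30 to 38 UMIs. Ubb, a polyubiquitin gene induced by stress, went from 31 to 32 UMIs, a ratio of 2.81 (1.66 to 4.76), beside 1.62 in Cxcr6-negative T cells, 1.96 in Cd8 T cells and 1.52 over all barcodes. Myl12b, a myosin light chain gene, reached 4.40 times its control level (2.10 to 9.56), with 13 and 21 UMIs, and Ywhab, a 14-3-3 protein gene, had 12 and 16.

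Ccl5 did not reach 2-fold, with 1434 CPM in control and 2769 CPM at day 1, a ratio of 1.93 (1.35 to 2.75). It was carried by 28 of 58 control members and 6 of 25 at day 1, and 2 of the latter held 39 of the 56 UMIs. Gzma stood at 363 and 98.9 CPM, and Id2 at 1035 and 1088 CPM. The ratio of Ccl5 in Cxcr6-negative T cells was 1.01 (0.862 to 1.19). A higher level from fewer cells thus set the day 1 value of Ccl5. Neutrophil markers were at 0.153 (0.0822 to 0.261) of control, from 250 to 14 UMIs. S100a8 with 123 and 5, S100a9 with 92 and 7, Retnlg with 25 and 0 and Pf4 with 26 and 0 UMIs were among the 10 genes furthest below control by the near end of their interval, 24 of the 26 Pf4 UMIs came from 1 cell, and the mitochondrial mt-Rnr1 went from 353 to 41 UMIs.

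The 5 members of day 7 allowed 388 genes to be compared with control. Of these 65 were past 2-fold higher (16.8%) and 31 lower (7.99%). When scaled without mitochondrial and hepatocyte genes the numbers were 45 and 43 of 380, with at least 40 UMIs they were 23 and 27, and with at least 10 UMIs 168 and 31. The floor of 972 CPM also kept genes that were low in control from being called lower, so the balance of higher and lower genes at day 7 was not read as a result. Retnlg, S100a9 and S100a8, all neutrophil genes, led the higher ones with 14, 37 and 41 UMIs. Their list was at 7.14 times its control level (5.60 to 9.03), and 2 members held 70 of the 78 S100a8 and S100a9 UMIs. In Cxcr6-negative T cells of day 7 the neutrophil markers reached 30098 CPM, close to the 32394 CPM of the members.

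Further down, Tmsb10, an actin-binding thymosin, had 105 and 21 UMIs, a ratio of 3.57 (2.12 to 5.74), and 12 of the 21 came from 1 cell. Srgn, the granule proteoglycan serglycin, had 45 and 11 UMIs, of which 10 came from 1 cell, and the cytokine gene Mif 28 and 9, of which 7 came from 1 cell. Rps2, Slfn2, Gapdh and Pkm followed with 14, 7, 8 and 7 UMIs at day 7. Without members carrying genes of another class Tmsb10 was at 1.42 (0.375 to 3.84) and Srgn at 0.860 (0.0209 to 5.27). These values left out 2 of the 5 members of day 7 as well as control members, and the ratios were not computed without the single cells. Summed, the 17 interferon-induced genes were at 2.71 times their control level (1.34 to 5.00, 79 and 12 UMIs) and the immediate early and heat shock genes at 2.09 times (1.33 to 3.18, 213 and 25 UMIs), and the interferon-induced genes stood at 0.938 (0.470 to 1.71) of Cxcr6-negative T cells in the same library.

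Lower at day 7 were above all mitochondrial transcripts, in the members as in the library. The ribosomal RNA gene mt-Rnr2 went from 9294 to 78 UMIs, a ratio of 0.150 (0.118 to 0.187), mt-Rnr1 from 353 to 1, and mt-Nd1 and mt-Cytb from 115 and 177 to 1 and 3. Apoe, a gene of macrophages, went from 217 to 2 UMIs, a ratio of 0.164 (0.0198 to 0.601). For the other 5 of the 10 genes named in this direction the interval included 1. These were Hmgb2 with 173 and 4 UMIs (0.111 to 1.08), the ribosomal protein genes Rpl35a with 122 and 2 (0.0350 to 1.08) and Rpsa with 167 and 4 (0.115 to 1.11), mt-Nd5 with 85 and 1 (0.00525 to 1.2) and the macrophage gene Lyz2 with 83 and 1 (0.00538 to 1.23).

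The effector genes of the 5 day 7 members were few. Ccl5 was at 1 UMI or 324 CPM (8.20 to 1805), while Cxcr6-negative and Cd8 T cells of the same library had 7270 and 9356 CPM, which were 5.31 and 4.09 times their control levels. The NK receptor genes, 112 UMIs in control, were also at 1 UMI, against 113 in Cxcr6-negative T cells, a ratio of 0.0761 (0.00191 to 0.433). Nkg7 was at 0. The intervals of the members excluded the levels of the other T cells for these genes, but the cells numbered 5, and 2 of them carried genes of another class.

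Cxcl16, the ligand of Cxcr6, was measured in the same libraries. In macrophage and monocyte barcodes its level was 182 CPM (169 to 195) in control, 155 (142 to 169) at day 1 and 114 (98.1 to 131) at day 7. Endothelial barcodes had 210 (179 to 245), 162 (143 to 182) and 342 (171 to 613) CPM, the last from 11 UMIs in 48 cells. The members themselves carried 3, 2 and 0 UMIs of it. Over all barcodes Cxcl16 stood at 145, 140 and 98.4 CPM, and in Cxcr6-negative T cells at 38.5 (19.2 to 68.9), 89.9 (51.4 to 146) and 37.7 (0.954 to 210). The value of day 7 was below that of control in macrophage barcodes and over the whole library alike, and the part of free RNA in these levels was not tested.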

How the data were processed

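Drop-seq gave 1 library per group (control, IRE day 1, IRE day 7), each pooled from 3 livers. The authors aligned reads with STAR 2.5.2a, as the submitters' processing notes give it, and deposited UMI counts per gene and barcode, raw and not normalized. Per the file headers, counting used the sense strand over coding and UTR bases, UMIs within 1 mismatch were merged, and reads below mapping quality 10 were dropped. The submitters' notes name a human build, so no coordinates were used. Each library held 10032574, 8563287 and 4580021 UMIs over 15704, 18161 and 12466 barcodes.

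Barcodes with at least 200 genes were kept as cells. The members and gene lists were chosen with earlier results of these data known. Counts were summed per library and T cell set. Sums were compared with edgeR 4.0.16 (quasi-likelihood test, TMM scaling, at least 30 UMIs, library as a block, Benjamini-Hochberg) and with DESeq2 1.42.0 as an alternative. The edgeR fit was also run on simulated counts with the same spread for every gene. Single barcodes that dominate a sum were not simulated, so that run cannot vouch for the calls given here. The libraries are the replicates, in 3 pairs of sums, and the pairing comes from the shared library. Days were compared by CPM ratios with conditional exact binomial intervals, shares by Clopper-Pearson and levels by exact Poisson intervals (95%), all covering counting error only. A count of 0 was given a floor of 3 counts. Named genes were those of the lists, the called genes, and per day 10 genes in each direction past 2-fold. These 10 were ranked by the near end of their interval, not by the ratio. Alternatives were other gene minimums, 3 T cell genes, 2 Cxcr6 UMIs, at most 20% mitochondrial UMIs, thinning to 300 UMIs, no filter, another scaling, no block, leaving out libraries, and leaving out barcodes with at least 3 genes of another class or, chosen after seeing the data, over 5% hepatocyte UMIs. Invariant α chain genes and 14 listed symbols in all were not used here, and some genes are not reported here.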

Additional observations from a re-analysis of the deposited data

How the results depend on the processing

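The share of cells that were members was 0.772% in control and 0.404% at day 1 with a minimum of 300 genes, 0.231% and 0.0648% with at least 3 T cell genes, and 1.03%, 0.595% and 0.421% in control, day 1 and day 7 without barcodes carrying genes of another class. The share of T cells without Cd8 that carried Cxcr6 was 6.08% in control after thinning, and 2.64%, 2.52% and 1.64% when 2 UMIs were required. Control exceeded day 1 and day 1 exceeded day 7 in the share of cells under each of these rules. Against Cxcr6-negative T cells 0 genes were called without the library block and by DESeq2, 1 without barcodes carrying genes of another class and 1 without barcodes over 5% hepatocyte transcripts, and 0 to 7 when a library was left out. Against Cd8 T cells 0 genes were called without the block, by DESeq2 and with no filter, 2 and 5 under the same exclusions of barcodes, and 5 to 24 when a library was left out. DESeq2 reversed the hepatocyte genes Gc (1.70), Mup3 (0.027) and Serpina1a (1.09), and leaving out barcodes over 5% hepatocyte transcripts reversed Apoc1 (0.27) and Apoc3 (0.12). The causes were not tested. Of the other values for single genes under the alternatives, 191 kept their direction and side of the threshold or, for the ratios between days, which had no test, stayed within their counting interval. A further 93 kept the direction but no longer passed, and 4 ratios at day 7 left their interval. All of the 93 were values of genes called in edgeR's main fit, so the called genes were less stable than the 191 would imply. For the shares and the counts of called genes, 33 alternatives moved the value and 23 did not. A share moved when it left its counting interval, and a count when it changed by more than a set factor. At day 1, 119 genes were higher and 214 lower with at least 10 UMIs, 8 and 25 with at least 40, and 11 and 38 without members carrying genes of another class. At day 7, 168 genes were higher and 31 lower, 23 and 27, and 37 and 22 under the same settings. With 5 members at day 7, a gene at 0 there could have been present at up to 972 CPM.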

Other observations

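Genes of tissue residency and recirculation were sparse in the members. Cd69, a retention marker, had 5, 1 and 2 UMIs in control, day 1 and day 7, Itgae, which encodes the integrin CD103, had 1, 0 and 0, and Itga1, the gene of CD49a, had 2, 1 and 0. Itgb1, an integrin chain shared by many cells, had 25, 11 and 1. Ccr7, a lymph node homing receptor, had 1 UMI. The cytokine genes Ifng, Il4 and Tnf had 2, 2 and 2 UMIs in control and no more than 1 at either later day, while the chemokine gene Xcl1 had 12, 2 and 0. Il18r1, a receptor chain of innate-like T cells, had 10, 0 and 1 UMIs. Of these genes only Itgb1, Itga1, Xcl1 and Il18r1 had enough UMIs to be tested against Cxcr6-negative T cells, and only Itgb1 against Cd8 T cells. None of them passed edgeR's quasi-likelihood test, and the others were not tested.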
